A study of Mus musculus with 16 samples.

Results

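Loss of hepatic Bcl6 was compared with its control in the terminal ileum of 16 C57BL/6 mice, 8 LKO against 8 WT, and the effect of genotype common to males and females was measured over all genes of the count table. WT mice (Bcl6 fl/fl) carried loxP-flanked Bcl6 and no Cre. LKO mice (Alb-cre, Bcl6 fl/fl) carried the same floxed alleles and Cre recombinase driven by the albumin promoter, which is active in hepatocytes, so ileal Bcl6 is intact by design in both genotypes. No group carried Cre without floxed alleles, so effects of Cre and of Bcl6 loss cannot be told apart. Each genotype held 4 males and 4 females, each giving 1 library of poly(A) RNA from a short piece of ileum next to the cecum. Ages and feeding state were not given in the labels. Of the 24940 genes in the table, 15598 had enough counts to be tested on the 16 samples.

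The terminal ileum takes up bile acids, and the gut wall also makes its own cholesterol, packages dietary fat and burns fatty acids for energy. The enzymes of cholesterol synthesis are transcribed together under SREBP2, a factor that is released from the endoplasmic reticulum when membrane sterol is scarce. Long-chain fatty acids enter mitochondria as carnitine esters and are shortened there by beta-oxidation, and many genes of this route are induced by PPAR alpha. ATF4 is a factor that is translated when amino acids are short or the unfolded protein response is active, and it induces amino acid synthesis and import. Bulk tissue cannot tell fewer cells of a type from less RNA per cell, and this holds for every value below.

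Gene counts lay between 15.7 and 20.5 M in 15 libraries and at 60.3 M in female LKO replicate 1. Values are CPM, counts per M counts after scaling by TMM. Animals of a group differed by more than counting error, with a chi-square of 8.84 to 29.4 per degree of freedom between pairs of libraries, where counting error alone gives about 1. Xist and Ddx3y matched the labelled sex in all 16 libraries. Markers of ileal enterocytes summed to between 27710 and 36803 CPM in every library, and Bcl6 itself was present in all of them. Follicle RNA set 4 libraries apart. The mean log2 CPM of 19 B cell and lymphoid follicle markers was 3.04 in male WT replicate 2, 2.31 in female WT replicate 3, 3.79 in female LKO replicate 2 and 4.73 in female LKO replicate 3, against 0.40 to 0.94 in the other 12. Results are therefore also given without these 4 libraries. Each sample title also carries a number, and the numbers form 5 sets of neighbours that do not divide evenly between the genotypes. What these numbers stand for is not stated, so results are given with the set as a factor as well. In that fit genotypes are compared only within sets, with few animals in each. Counted by rising number, sets 2, 4 and 5 hold a single genotype each, so the comparison rests on sets 1 and 3. The only males in those are male WT replicate 4 and male LKO replicate 1.

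A small set of genes differed between the genotypes with sex as a covariate. Of the 15598 genes, 42 (0.269%) passed an edgeR adjusted p of 0.05, 19 higher in LKO (0.122%) and 23 lower (0.147%). Their absolute log2 fold changes ran from 0.19 to 2.04 with a median of 0.35, and 3 reached 1. At an unadjusted p under 0.05, 728 genes were higher (4.67%) and 1025 lower (6.57%), and the median log2 fold change of all genes tested was 0.00065. The shares of 4.67% higher and 6.57% lower are the background for every list count below. The gene lists were chosen with earlier results of these data known, so counts within them are no independent evidence. The called genes lay on 18 chromosomes. In 9 of the 15598 genes (0.0577%) the 8 LKO and 8 WT libraries did not overlap, and 7 of these 9 were among the 42. The other two, Stard13 and Setd7, did not pass, with edgeR adjusted p-values of 0.0502 and 0.0947.

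The 40 called genes that are described here had the same sign in each sex. Because they were selected on all 16 animals, agreement between the sexes is part of how they were chosen and not separate evidence. A test of the difference between the sexes called 0 of 15598 genes with edgeR (smallest adjusted p 0.845), and 879 (5.64%) had an unadjusted p under 0.05. Among the called genes 4 did so: Stard4 (unadjusted edgeR p 0.00632), Phgdh (0.00901), Mir5114 (0.0265) and Bag4 (0.0397), all with the larger effect in females. With the set of title numbers as a factor, all 42 kept their direction and had an unadjusted p under 0.05, their fold changes were 0.979 times those without the factor in the median, and 0 passed the adjusted threshold (1118 genes at an unadjusted p under 0.05). The 42 were selected on these same libraries, so their kept direction and size in this and other refits are not separate evidence either. Leaving out 1 library gave between 5 (without male WT replicate 1) and 102 calls (without male WT replicate 4), and no called gene described here changed sign in any of these fits. Without the 4 libraries rich in follicle RNA 5 genes were called, all among the 42, Akr1c14, Esrrg, Acadl and Slc25a20 among them.

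**Figure D1:**
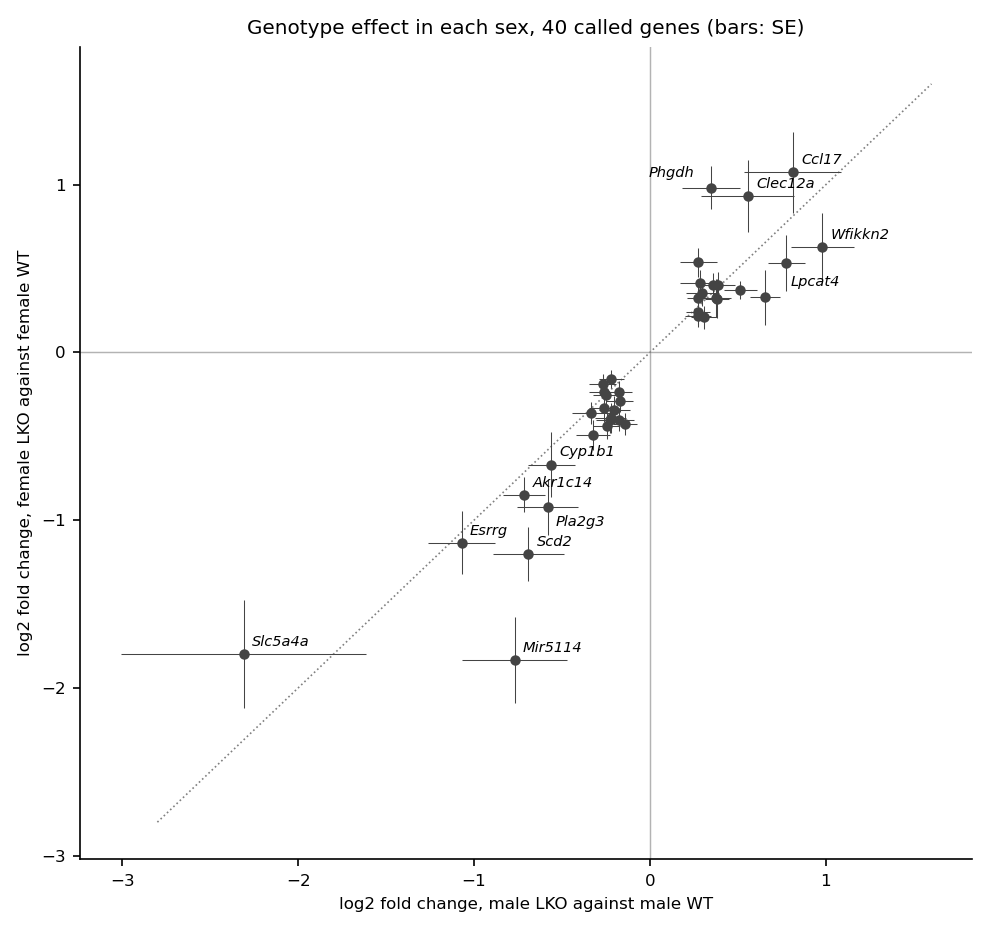
The log2 fold change of LKO against WT in males (horizontal axis) and in females (vertical axis) is shown for 40 called genes, with bars for the SE from fits within each sex and a dotted line of equality. All 40 points lie at the lower left or the upper right of the origin, from Slc5a4a (-2.31 in males, -1.80 in females) to Ccl17 (0.81 and 1.07), and Phgdh lies above the line (0.35 and 0.98).

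Sequences upstream of called genes were read from RefSeq promoters on GRCm38.p6, the assembly of mm10, as 250 bases before to 50 after the start site. A promoter matched 18062 genes of the table and 34 of the 40 called genes described. The promoters of the called genes with the smallest p follow, 3 higher (Acadl, Slc25a22 and Pex11a) and 2 lower (Akr1c14 and Esrrg), so that the regions can be inspected. None of the 5 held any of the 6 motifs searched (their letters stand beside the ATF4 genes), so no base is in capitals.
Acadl (chr1:66863260-66863559, minus strand): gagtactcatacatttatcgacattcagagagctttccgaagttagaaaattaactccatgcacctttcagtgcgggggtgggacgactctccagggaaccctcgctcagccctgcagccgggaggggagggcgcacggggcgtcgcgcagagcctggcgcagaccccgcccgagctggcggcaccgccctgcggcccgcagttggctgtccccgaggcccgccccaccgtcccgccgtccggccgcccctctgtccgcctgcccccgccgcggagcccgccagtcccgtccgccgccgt
Slc25a22 (chr7:141437825-141438124, minus strand): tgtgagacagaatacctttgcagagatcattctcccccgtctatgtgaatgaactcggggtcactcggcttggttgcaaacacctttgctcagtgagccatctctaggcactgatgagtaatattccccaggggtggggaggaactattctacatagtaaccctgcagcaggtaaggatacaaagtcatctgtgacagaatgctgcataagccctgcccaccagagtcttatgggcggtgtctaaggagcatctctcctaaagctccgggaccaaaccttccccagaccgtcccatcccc
Pex11a (chr7:79743082-79743381, minus strand): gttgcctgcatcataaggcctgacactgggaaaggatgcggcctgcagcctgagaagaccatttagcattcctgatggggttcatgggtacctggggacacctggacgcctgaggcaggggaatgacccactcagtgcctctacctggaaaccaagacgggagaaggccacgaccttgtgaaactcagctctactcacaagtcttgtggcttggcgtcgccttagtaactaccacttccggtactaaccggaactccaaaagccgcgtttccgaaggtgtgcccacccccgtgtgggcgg
Akr1c14 (chr13:4059341-4059640, plus strand): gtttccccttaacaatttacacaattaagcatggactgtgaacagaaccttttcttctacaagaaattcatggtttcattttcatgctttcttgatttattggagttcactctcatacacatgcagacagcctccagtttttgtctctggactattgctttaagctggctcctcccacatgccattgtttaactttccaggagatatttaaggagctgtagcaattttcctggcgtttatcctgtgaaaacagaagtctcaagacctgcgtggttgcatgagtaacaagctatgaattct
Esrrg (chr1:187997577-187997876, plus strand): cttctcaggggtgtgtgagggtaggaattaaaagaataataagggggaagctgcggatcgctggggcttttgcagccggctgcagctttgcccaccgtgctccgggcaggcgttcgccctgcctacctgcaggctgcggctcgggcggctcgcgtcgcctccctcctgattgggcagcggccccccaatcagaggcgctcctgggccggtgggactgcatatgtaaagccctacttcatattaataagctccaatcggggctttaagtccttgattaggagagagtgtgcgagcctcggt

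The smallest p-values belonged to a steroid-metabolising enzyme and an orphan nuclear receptor, both lower in LKO. Akr1c14, an aldo-keto reductase with 3-alpha-hydroxysteroid dehydrogenase activity (NM_134072, chromosome 13, 4059591 to 4090422, mm10), ran from 46.7 to 72.4 CPM in the 8 WT libraries with a median of 64.6, and from 29.7 to 47.9 CPM in the 8 LKO libraries. Of the LKO libraries, 7 lay below the lowest WT library. The log2 fold change was -0.79 (SE 0.086, adjusted p 0.00046 by edgeR), with -0.72 in males and -0.85 in females. Esrrg, the oestrogen-related receptor gamma, which drives genes of oxidative metabolism in other tissues (NM_011935, chromosome 1, 187997827 to 188214884), ran from 4.72 to 7.65 CPM in WT (median 6.62) and from 2.08 to 3.51 CPM in LKO (median 3.29). All 8 LKO libraries lay below all 8 WT libraries, at 0.465 times the WT level (log2 fold change -1.11, SE 0.13, adjusted p 0.000473 by edgeR).

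The relatives of these genes were read next. Akr1c14 sits in a cluster of related reductase genes on chromosome 13. Akr1c12 (-0.22, SE 0.049), Akr1c13 (-0.34, SE 0.081) and Akr1c19 (-0.43, SE 0.17) of that cluster had negative log2 fold changes in both sexes, none past the adjusted threshold (edgeR adjusted p-values of 0.0608, 0.0849 and 0.329). These genes are close copies, and reads that match several of them were dropped at alignment, which may lower their counts. Akr1b8, an aldose reductase relative on chromosome 6, had a log2 fold change of 0.45 (SE 0.12, adjusted p 0.116 by edgeR). Over the 20 tested aldo-keto reductase and hydroxysteroid dehydrogenase genes, 1 was called (Akr1c14). At an unadjusted p under 0.05 there were 2 higher (10%) and 5 lower (25%), against 4.67% and 6.57% of all genes. Of the 13 tested oestrogen-related receptors and coactivators Esrrg alone was called. The coactivators Ppargc1a and Ppargc1b stood at -0.35 (SE 0.091) and 0.31 (SE 0.089), and Esrra stood at 0.01 (SE 0.045). Among 34 other nuclear receptors 0 passed with edgeR, while 2 were higher and 9 lower at an unadjusted p under 0.05, against 4.67% and 6.57% of all genes, the smallest p being that of the thyroid hormone receptor gene Thrb (-0.32, SE 0.078). Of these receptors 1 was higher and 1 lower at an unadjusted p under 0.05 without the 4 follicle-rich libraries.

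**Figure D2:**
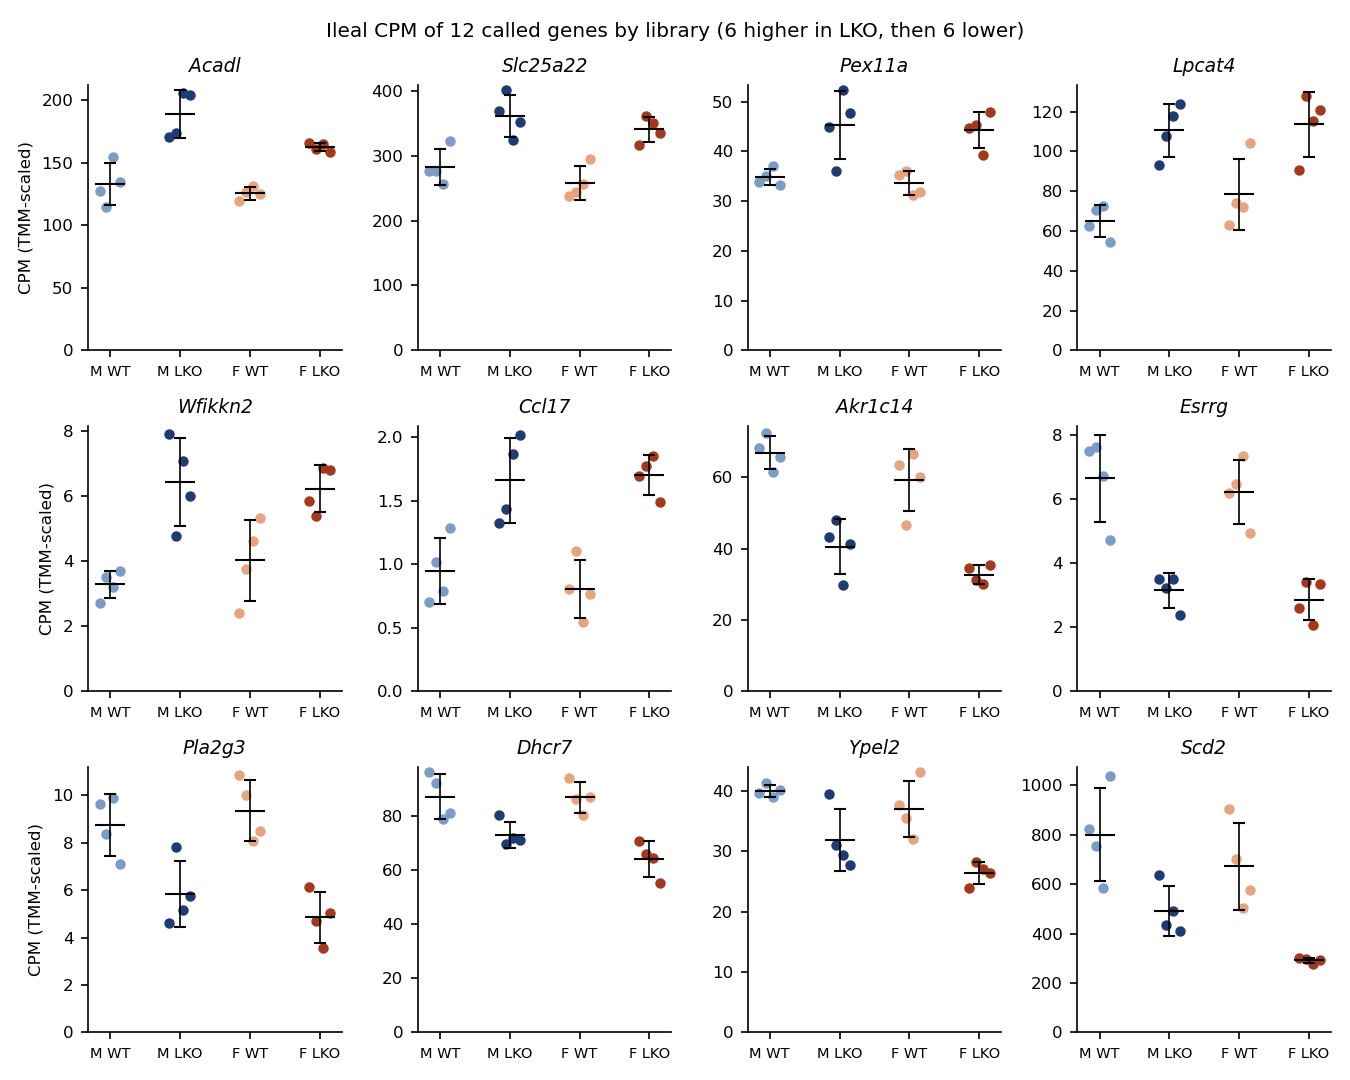
CPM of 12 called genes is shown by library (vertical axis from 0) for males and then females, WT before LKO, with each point 1 animal and the bars the mean and SD of 4. Acadl, Ccl17 and Esrrg show no overlap between WT and LKO, and Scd2 runs from 276 to 299.75 CPM in female LKO.

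Of the 19 higher genes 4 belong to mitochondrial fatty acid oxidation. Acadl, the long-chain acyl-CoA dehydrogenase (NM_007381, chromosome 1, 66830839 to 66863309), ran from 115 to 155 CPM in WT (median 127) and from 159 to 206 CPM in LKO (median 168). The genotypes did not overlap, and the log2 fold change was 0.44 (SE 0.058, adjusted p 0.000834 by edgeR), with 0.51 in males and 0.37 in females. Slc25a20, the carnitine-acylcarnitine carrier of the inner membrane, rose from a WT median of 94.3 CPM (range 83.3 to 118) to an LKO median of 120 (99.4 to 153), a log2 fold change of 0.35 (SE 0.072). Cpt2, which turns the carried carnitine esters back into acyl-CoA, rose from a median of 128 CPM (119 to 147) to 160 (141 to 167), and 7 of 8 LKO libraries exceeded every WT library (log2 fold change 0.25, SE 0.051). Hadha, the alpha subunit of the trifunctional protein, rose from between 282 and 329 CPM in WT to between 327 and 399.99 CPM in LKO, with 7 of 8 LKO libraries above every WT library (log2 fold change 0.24, SE 0.047). The edgeR adjusted p-values of Hadha, Cpt2 and Slc25a20 were 0.0321, 0.0426 and 0.047.

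Other members of the route fell short of the threshold. Cpt1a, which makes the carnitine esters, had a log2 fold change of 0.36 (SE 0.086, adjusted p 0.0911 by edgeR), and Acadvl, the very-long-chain dehydrogenase, one of 0.23 (SE 0.049, adjusted p 0.0502), just outside the threshold. Acaa2, a thiolase, stood at 0.26 (SE 0.064, adjusted p 0.0849). Echs1, the short-chain hydratase, had the opposite sign at -0.13 (SE 0.045, adjusted p 0.26 by edgeR). Of the 26 tested genes of mitochondrial oxidation and ketone synthesis 4 were called, all higher, 19 had a positive log2 fold change, and at an unadjusted p under 0.05 there were 12 higher (46.2%, against 4.67% of all genes) and 1 lower. The list median was 0.11, with 0.14 in males and 0.08 in females, and 22 of the 26 had the same sign in both. Without the 4 follicle-rich libraries 2 members were called and 11 were higher at an unadjusted p under 0.05.

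Peroxisomal and fat-handling genes gave 4 further calls. Pex11a, a peroxisome membrane protein that promotes peroxisome division and is a known PPAR alpha target (NM_011068, chromosome 7, 79735958 to 79743131), ran from 31.3 to 37.0 CPM in WT and from 36.0 to 52.4 CPM in LKO. Of the LKO libraries, 7 exceeded every WT library, and the effect was nearly equal in the sexes (log2 fold change 0.39, SE 0.065, adjusted p 0.0165 by edgeR). Of 20 tested peroxisomal oxidation genes and PPAR alpha targets Pex11a alone was called, and 5 were higher and 0 lower at an unadjusted p under 0.05, among them Creb3l3, a factor of fasting and lipoprotein genes (0.43, SE 0.11), and Vnn1 (0.41, SE 0.13). In this list 9 of the 20 had the same sign in both sexes, with a median of 0.14 in males and 0.01 in females. Without the 4 follicle-rich libraries the median was 0.03 in place of 0.08, with 5 higher, 1 lower and 0 called. Abhd6, a monoacylglycerol lipase, rose from a median of 63.0 CPM to 78.7 CPM (log2 fold change 0.35, SE 0.066, adjusted p 0.031 by edgeR). Agpat2, an acyltransferase that makes phosphatidic acid on the way to triglyceride, rose from a median of 243 to 294 CPM (log2 fold change 0.30, SE 0.062, adjusted p 0.0474). Lpcat4, which reacylates lysophospholipids, rose from a median of 71.2 CPM (54.5 to 104) to 117 (90.5 to 128), a log2 fold change of 0.65 (SE 0.11, adjusted p 0.0263 by edgeR). With the title number as a covariate the values of Abhd6 and Lpcat4 were smaller, at 0.22 and 0.42. Among 29 tested genes of fat absorption and chylomicron assembly 25 had a positive log2 fold change (median 0.09), 1 was called, and 5 were higher and 1 lower at an unadjusted p under 0.05. The list median was 0.03 in males and 0.18 in females, and 19 of the 29 had the same sign in both. It was 0.03 with 3 higher and 0 called without the 4 follicle-rich libraries, and also 0.03 with the title number as a covariate. The study picked fat absorption and PPAR signalling in males, and serine and one-carbon metabolism in females, from these libraries, so these counts are no independent evidence of direction. The chylomicron apolipoprotein gene Apoa4 had opposite signs in the sexes (-0.36 in males, 1.27 in females), so its mean of 0.45 (SE 0.37) describes neither.

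All 25 tested genes of cholesterol synthesis and uptake had a negative log2 fold change in LKO, and 4 of them passed the test. Dhcr7, which reduces 7-dehydrocholesterol to cholesterol (NM_007856, chromosome 7, 143823167 to 143848410), ran from 79.1 to 96.3 CPM in WT (median 86.7) and from 55.3 to 80.3 CPM in LKO (median 70.3), a log2 fold change of -0.35 (SE 0.059, adjusted p 0.0191 by edgeR). Lss, lanosterol synthase (NM_146006, chromosome 10, 76531605 to 76557139), fell from a median of 69.4 CPM (61.9 to 100.1) to 55.8 CPM (46.9 to 72.1), with nearly the same effect in males (-0.33) and females (-0.36). Nsdhl, a sterol dehydrogenase later in the route, fell by 0.23 on the log2 scale (SE 0.05, edgeR adjusted p 0.05 after rounding, the last gene inside the threshold). Stard4, a carrier that moves cholesterol between membranes (NM_133774, chromosome 18, 33199138 to 33213862), fell from a median of 275 CPM (239 to 293) to 214 (198 to 254). Its log2 fold change was -0.29 (SE 0.055), with -0.14 in males and -0.43 in females. The edgeR adjusted p was 0.031 for both Lss and Stard4.

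The list median was -0.20, against 0.00065 over all genes, with -0.14 in males and -0.22 in females, 4 were called lower, and 19 were lower at an unadjusted p under 0.05 (76%, against 6.57% of all genes). Of the 25 tested, 23 were negative in both sexes. In the mean log2 CPM of the list, relative to the WT mean of the same sex, male LKO ran from -0.33 to -0.04. Male WT ran from -0.11 to 0.18, and these overlapped. Female LKO (-0.30 to -0.20) and female WT (-0.06 to 0.06) did not overlap. Early in the route, Acat2, which joins acetyl-CoA units, stood at -0.29 (SE 0.067) and mevalonate kinase, Mvk, at -0.25 (SE 0.059), both with an edgeR adjusted p of 0.0679. Hmgcs1, the HMG-CoA synthase of the cytosol, stood at -0.22 (SE 0.064), squalene epoxidase, Sqle, at -0.19 (SE 0.064), Srebf2, which encodes SREBP2, at -0.16 (SE 0.042) and the sterol sensor Insig1 at -0.34 (SE 0.08). None of these 4 passed alone (edgeR adjusted p 0.0926 to 0.222). Members of the list are regulated together, so their count is not that of independent observations. Like the fatty acid oxidation, ATF4 and Paneth lists, it was chosen with earlier results of these data known. Its share is therefore no independent evidence. Over 21 refits, which included leaving out each library, the list median stayed between -0.24 and -0.18. Without the 4 follicle-rich libraries it was -0.22 with 19 members lower at an unadjusted p under 0.05 and 0 called, and with the set of title numbers as a factor it was -0.19 with 13 lower at an unadjusted p under 0.05.

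**Figure D3:**
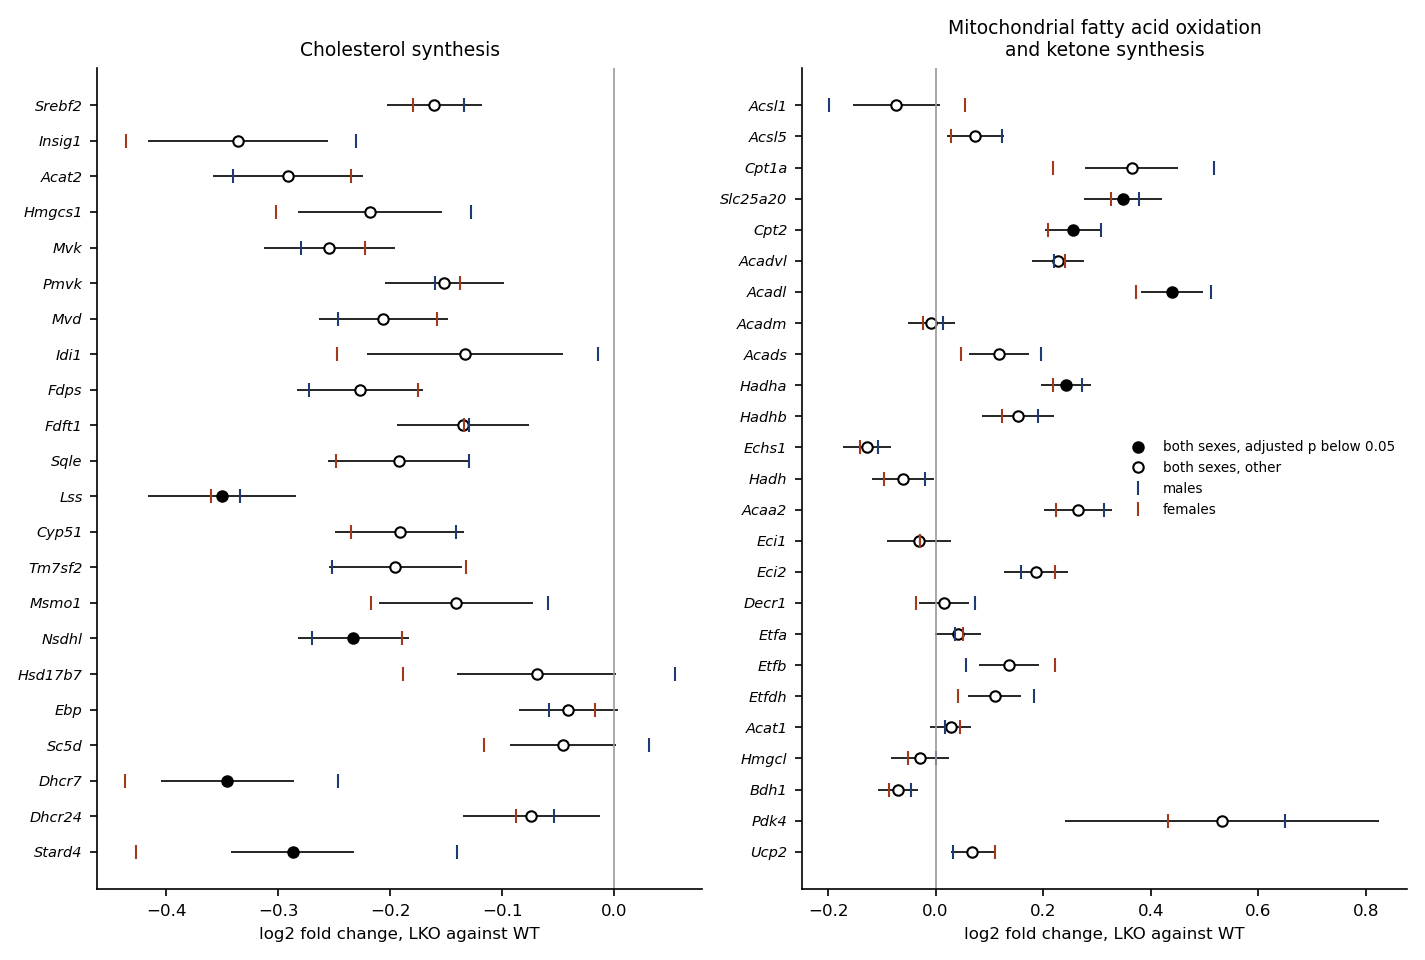
The log2 fold change of LKO against WT (horizontal axis) is shown for 22 of the 25 tested genes of cholesterol synthesis and uptake and 25 of the 26 of mitochondrial fatty acid oxidation and ketone synthesis, in about pathway order. Circles with SE bars are the effect in both sexes, filled where the adjusted p was below 0.05 (4 in each panel), and blue and red ticks are the effects in males and females. All 22 circles lie left of 0 in the first panel and 18 of 25 right of 0 in the second.

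Desaturation of fatty acids, which also answers to SREBP factors, held 1 called gene and values of both signs. Scd2, a stearoyl-CoA desaturase (NM_009128, chromosome 19, 44293676 to 44306862), ran from 505 to 1038 CPM in WT (median 729) and from 276 to 636 CPM in LKO (median 354), a log2 fold change of -0.95 (SE 0.15, adjusted p 0.0275 by edgeR). In females it was -1.20 and in males -0.69. Mir5114 lies inside Scd2 and was called as well (-1.27, SE 0.25), but its counts overlap those of its host gene and are no separate measurement. Scd1, the neighbouring desaturase gene, had a positive value and a wide spread. It ran from 53.1 to 402 CPM in WT and from 81.9 to 1531 in LKO, with a log2 fold change of 0.96 (SE 0.50, adjusted p 0.508 by edgeR). Its highest values, 1531 and 801 CPM, were in female LKO replicates 2 and 3, both rich in follicle RNA, and without the 4 follicle-rich libraries the log2 fold change was 0.38 (SE 0.52). Of 20 tested genes of fatty acid synthesis and desaturation Scd2 alone was called, and 2 were higher and 5 lower at an unadjusted p under 0.05, among the latter the desaturases Fads1 (-0.26, SE 0.079) and Fads2 (-0.19, SE 0.066) and the elongase Elovl5 (-0.24, SE 0.07). With the 4 follicle-rich libraries left out the list had 1 higher and 10 lower, its median was -0.19 in place of -0.05, and 0 members were called. Scd2 then had a log2 fold change of -0.96 with an edgeR adjusted p of 0.213. Mid1ip1, whose product promotes the polymerisation of acetyl-CoA carboxylase, fell from a median of 66.0 CPM to 57.7 CPM (log2 fold change -0.26, SE 0.053, adjusted p 0.047 by edgeR).

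Slc25a22, Asns, Slc6a9 and Phgdh rose. Slc25a22, a mitochondrial glutamate carrier (NM_001360724, chromosome 7, 141429749 to 141437874), ran from 237 to 322 CPM in WT (median 266) and from 317 to 401 CPM in LKO (median 351), with a log2 fold change of 0.38 (SE 0.057, adjusted p 0.00589 by edgeR). It rose to about the same extent in males (0.36) and females (0.40). The lists that hold it had values of both signs. Of 23 tested genes of glutamate and glutamine handling 3 were higher and 4 lower at an unadjusted p under 0.05 (median -0.01), and of 35 mitochondrial carriers of the Slc25 family 3 were higher and 5 lower. Asns, asparagine synthetase, rose from a median of 49.4 CPM (44.3 to 60.9) to 67.5 (52.9 to 80.4), a log2 fold change of 0.40 (SE 0.078). Slc6a9, a glycine transporter, rose from 20.9 CPM (16.4 to 23.5) to 27.9 (20.6 to 29.6), with female LKO highest at 29.6. Phgdh, which starts serine synthesis, rose from 7.80 CPM (5.81 to 10.4) to 12.1 (9.39 to 15.6), and its log2 fold change was 0.66 (SE 0.13) with 0.35 in males and 0.98 in females. The edgeR adjusted p-values were 0.0321 for Slc6a9, 0.0344 for Asns and 0.0379 for Phgdh.

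The 3 called genes Asns, Slc6a9 and Phgdh are textbook ATF4 targets. Of the 29 tested genes on a list of such targets 24 had a positive log2 fold change (median 0.15), 3 were called higher, and 12 were higher and 0 lower at an unadjusted p under 0.05 (41.4%, against 4.67% of all genes). The median was 0.07 in males and 0.20 in females, and for 7 of the 29 the difference between the sexes had an unadjusted p under 0.05 (5.64% of all genes did). Slc7a5, an amino acid importer, stood at 0.41 (SE 0.10), Psat1 at 0.31 (SE 0.10), the glutathione-degrading Chac1 at 0.75 (SE 0.27) and, outside the list, Mthfd2 of mitochondrial one-carbon metabolism at 0.41 (SE 0.11), none past the adjusted threshold (edgeR adjusted p 0.108 to 0.277). Atf4 transcript itself was at 0.02 (SE 0.058), with 206 to 292 CPM in WT and 223 to 262 in LKO. In the mean log2 CPM of the list, all 4 female LKO libraries (0.23 to 0.26 above the WT mean of their sex) lay above all 4 female WT libraries (-0.08 to 0.08). Male LKO ran from 0.03 to 0.20 and male WT from -0.11 to 0.07, and these overlapped. Of 24 tested genes of serine synthesis and one-carbon metabolism 1 was called (Phgdh), and 5 were higher and 2 lower at an unadjusted p under 0.05. Without the 4 follicle-rich libraries 7 of the 29 were higher at an unadjusted p under 0.05 and 0 were called.

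**Figure D4:**
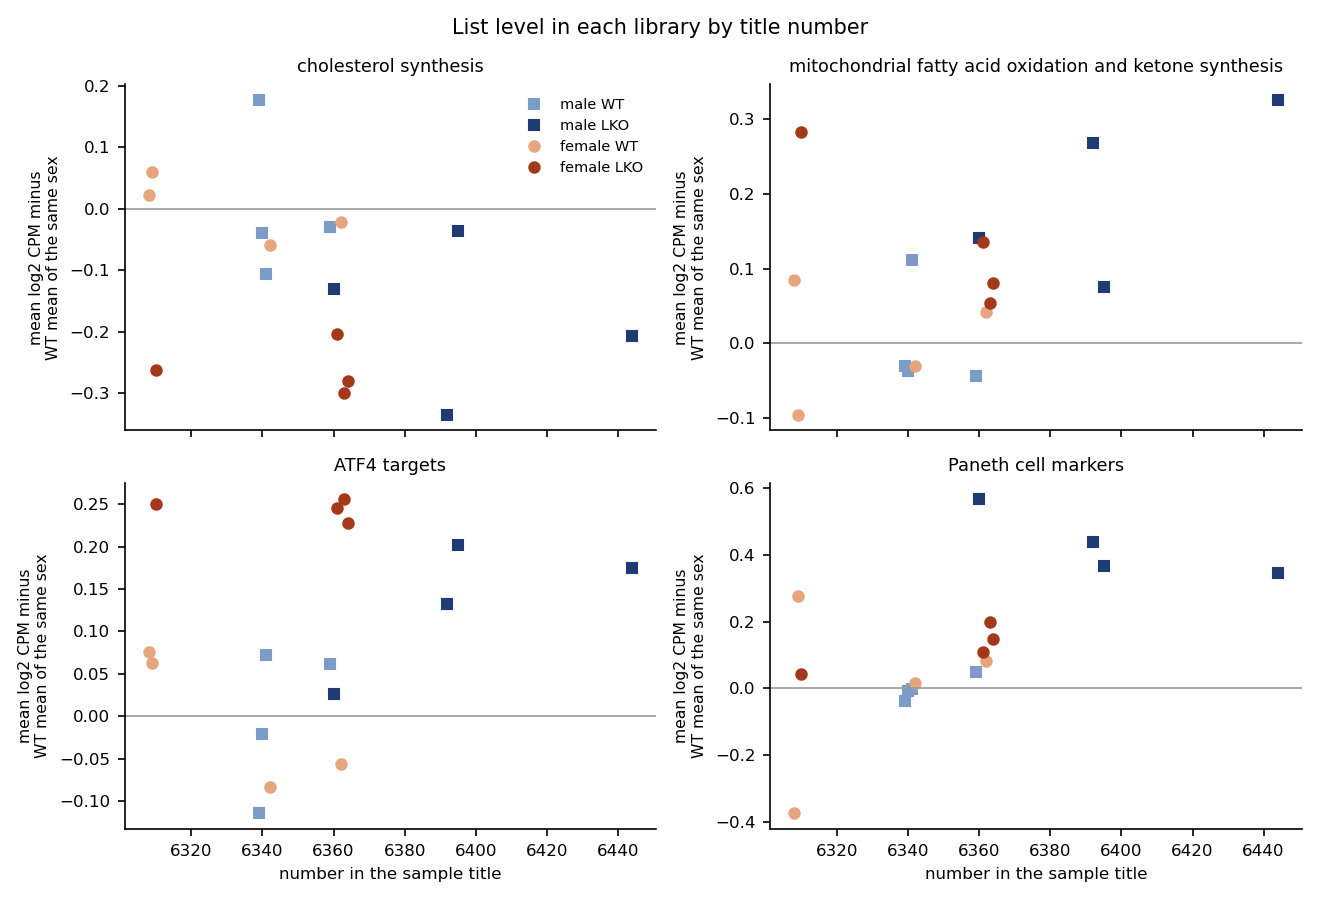
The mean log2 CPM of 4 gene lists, relative to the WT mean of the same sex (vertical axis), is plotted against the number in the sample title (horizontal axis), with 1 point a library, squares for males and circles for females. Cholesterol synthesis in LKO lies between -0.33 and -0.04, with female LKO from -0.30 to -0.20 in both sets of numbers that hold them, while Paneth cell markers in females run from -0.38 to 0.28 in WT and from 0.04 to 0.20 in LKO.

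In these windows motifs were searched on both strands, and a match is only a run of letters. The ATF4 element TGATGCAA was present in 7 of 25 promoters of the ATF4 list (28%) and in 0.902% of the 18062 promoters, and in 1 of 21 promoters of the fatty acid oxidation list (4.76%). The ATF4 list was made of known ATF4 targets, so its share describes the list and is no result about these libraries. The E-box CACGTG was present in 3 of 17 promoters of the cholesterol list (17.6%) and in 8.15% of all, and the sterol regulatory element TCACNCCAC in 1 of 17 (5.88%) and in 1.19% of all. The sterol element was also in 1 of the 21 promoters of the fatty acid oxidation list (4.76%). The ATF4 element, the E-box and the sterol element were in 0 of the 34 called genes. The oestrogen-related receptor element TCAAGGTCA (0.332% of all) and CAAAGGTCA, part of the direct repeat that PPAR binds (0.443% of all), were in no promoter of the called genes or of these lists. The D-box TTATGTAA was in 1 called gene, Clec12a, and in 0.886% of all. Letters in other positions, such as enhancers, were not searched. The promoters of 3 ATF4 list members (Chac1, Aars and Nupr1) and of 2 members of the cholesterol list (Insig1 and Hmgcs1) that hold a match are shown with each matched motif in capitals. Aars and Nupr1 hold both an E-box and the ATF4 element, Insig1 an E-box and Hmgcs1 the sterol regulatory element. The log2 fold changes of these 5 genes were 0.75 for Chac1, 0.16 for Aars, 0.21 for Nupr1, -0.34 for Insig1 and -0.22 for Hmgcs1. These 5 were chosen after their values were seen, and other matches are not printed. Atf3, Slc7a11, Slc1a4 and Vldlr also hold the ATF4 element, and Hsd17b7 and Sc5d an E-box. Echs1 of the fatty acid oxidation list holds the ATF4 element and had a negative log2 fold change. Whether a motif goes with the direction of change was not tested.
Chac1 (chr2:119350992-119351291, plus strand): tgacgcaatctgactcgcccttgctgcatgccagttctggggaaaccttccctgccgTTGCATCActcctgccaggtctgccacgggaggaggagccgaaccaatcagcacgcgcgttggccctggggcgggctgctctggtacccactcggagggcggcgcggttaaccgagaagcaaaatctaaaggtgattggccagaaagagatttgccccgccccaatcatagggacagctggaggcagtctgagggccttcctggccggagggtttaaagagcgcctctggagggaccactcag
Aars (chr8:111033592-111033891, plus strand): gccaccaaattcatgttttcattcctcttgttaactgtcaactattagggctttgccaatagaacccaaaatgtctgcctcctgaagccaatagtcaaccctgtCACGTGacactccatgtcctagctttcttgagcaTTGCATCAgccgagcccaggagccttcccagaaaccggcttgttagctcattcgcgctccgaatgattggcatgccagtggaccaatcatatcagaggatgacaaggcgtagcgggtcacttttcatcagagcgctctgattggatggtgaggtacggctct
Nupr1 (chr7:126625421-126625720, minus strand): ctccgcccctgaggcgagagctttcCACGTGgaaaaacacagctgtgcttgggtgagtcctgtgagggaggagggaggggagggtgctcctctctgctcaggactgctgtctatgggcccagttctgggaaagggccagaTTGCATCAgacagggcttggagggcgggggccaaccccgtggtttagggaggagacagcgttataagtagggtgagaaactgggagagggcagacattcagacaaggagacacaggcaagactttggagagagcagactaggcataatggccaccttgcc
Insig1 (chr5:28071162-28071461, plus strand): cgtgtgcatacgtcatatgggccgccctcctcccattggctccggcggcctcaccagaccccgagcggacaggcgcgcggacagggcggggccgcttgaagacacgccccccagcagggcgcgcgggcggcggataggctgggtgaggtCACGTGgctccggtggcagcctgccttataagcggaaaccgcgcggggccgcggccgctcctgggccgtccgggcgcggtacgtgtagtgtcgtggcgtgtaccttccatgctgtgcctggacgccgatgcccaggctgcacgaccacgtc
Hmgcs1 (chr13:119690101-119690400, plus strand): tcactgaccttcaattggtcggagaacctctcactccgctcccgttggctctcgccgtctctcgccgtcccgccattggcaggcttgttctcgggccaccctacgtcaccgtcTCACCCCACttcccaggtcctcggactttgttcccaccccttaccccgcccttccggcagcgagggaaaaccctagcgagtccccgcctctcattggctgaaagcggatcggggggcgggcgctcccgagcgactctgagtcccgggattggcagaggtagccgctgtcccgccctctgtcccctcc

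Of 33 tested xenobiotic enzymes 26 had a negative log2 fold change, and Ugt2b34 passed the test. Ugt2b34, a glucuronosyltransferase (NM_153598, chromosome 5, 86889770 to 86906937), ran from 375 to 510 CPM in WT (median 445) and from 302 to 385 CPM in LKO (median 361), a log2 fold change of -0.32 (SE 0.059, adjusted p 0.031 by edgeR), and it belongs to a family of close copies. Outside the list Cyp1b1, a cytochrome P450 of steroid and retinoid oxidation, fell from a median of 10.6 CPM (8.82 to 17.5) to 7.28 (6.37 to 9.05), a log2 fold change of -0.62 (SE 0.12, adjusted p 0.031). At an unadjusted p under 0.05, 0 of the 33 were higher and 7 lower (21.2%, against 6.57% of all genes). The smallest p after Ugt2b34 was that of Cyp3a25, with 34.1 to 94.8 CPM in WT and 24.6 to 37.3 in LKO (log2 fold change -0.92, SE 0.23, adjusted p 0.121 by edgeR). Of 21 retinoid genes 11 were positive, 10 negative and 0 called with edgeR. At an unadjusted p under 0.05, 0 were higher and 6 lower (28.6%, against 6.57% of all genes). Among the lower were Aldh1a1, which makes retinoic acid (-0.39, SE 0.093), the carotene oxygenase gene Bco1 (-0.36, SE 0.12), Lrat, which esterifies retinol (-0.48, SE 0.18), and Rdh11 (-0.22, SE 0.059). Their edgeR adjusted p-values lay between 0.0958 and 0.317.

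Other lower genes were of mixed function. Pla2g3, a secreted phospholipase A2 (NM_172791, chromosome 11, 3488227 to 3494166), ran from 7.08 to 10.8 CPM in WT (median 9.07) and from 3.54 to 7.83 CPM in LKO (median 5.10), a log2 fold change of -0.76 (SE 0.13, adjusted p 0.0191 by edgeR). Slc5a4a, of the sodium-glucose transporter family, had the largest change of all called genes, from a median of 5.51 CPM (1.44 to 10.1) to 0.987 CPM (0.658 to 2.45), or 0.243 times the WT level (log2 fold change -2.04, SE 0.38, adjusted p 0.0458 by edgeR). The WT animals spread widely and 3 LKO libraries lay within the WT range. Ypel2 fell from a median of 39.4 CPM to 28.0 CPM (log2 fold change -0.41, SE 0.072). The co-chaperone gene Bag4 fell from 30.6 to 24.3 CPM (-0.29, SE 0.055), and Cog5, of a Golgi tethering complex, from 20.0 to 16.3 CPM (-0.28, SE 0.056). Kit, the receptor of interstitial cells of Cajal and mast cells, fell from 66.4 to 57.5 CPM (-0.25, SE 0.052). Usp40, Zcchc14, Cyb5b and Trim30d fell by 0.19 to 0.31 on the log2 scale, and in Usp40 and Zcchc14 all 8 LKO libraries lay below all 8 WT libraries. The closest libraries of Usp40 stood at 29.8 (female WT replicate 2) and 29.2 CPM (male LKO replicate 3). Those of Zcchc14 stood at 55.7 (male WT replicate 1) and 55.3 CPM (female LKO replicate 2). Both gaps are within counting error.

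Some higher genes belong to immune signalling. Ccl17, a chemokine that attracts CCR4-bearing T cells (NM_011332, chromosome 8, 94810453 to 94812036), ran from 0.549 to 1.28 CPM in WT and from 1.32 to 2.02 CPM in LKO without overlap, a log2 fold change of 0.94 (SE 0.18, adjusted p 0.031 by edgeR). Its closest libraries held 25 counts (male WT replicate 4) and 26 counts (male LKO replicate 1), a gap within counting error. Il4ra, the shared receptor chain of interleukins 4 and 13, ran from 117 to 149 CPM in WT and from 155 to 175 CPM in LKO, again without overlap (log2 fold change 0.25, SE 0.049, adjusted p 0.0321 by edgeR). Fcgrt, the neonatal Fc receptor, rose by 0.32 (SE 0.063) and Clec12a, a lectin of myeloid cells, by 0.76 (SE 0.16) on the log2 scale. With the follicle score as a covariate the unadjusted edgeR p of these 4 lay between 4.83e-05 and 0.000148. Without the 4 follicle-rich libraries none of these 4 genes passed the adjusted threshold. The highest Clec12a value, 3.15 CPM, was in female LKO replicate 3, which is rich in follicle RNA. The summed markers of macrophages and dendritic cells ran from 568 to 749 CPM in WT and from 598 to 814 in LKO, with 16 of 17 log2 fold changes positive, 0 called by edgeR and 3 at an unadjusted p under 0.05. Their part in these results was not tested. Of 28 tested genes of TNF and NF-kB inflammation 0 were called, 22 were positive (median 0.12), and 10 were higher (35.7%, against 4.67% of all genes) and 0 lower at an unadjusted p under 0.05, among them the TNF receptor gene Tnfrsf1a (0.17, SE 0.043), Nfkbia (0.26, SE 0.068), Icam1 (0.37, SE 0.11) and Ccl2 (0.53, SE 0.16), at edgeR adjusted p-values of 0.0958 to 0.179. The median of this list was 0.08 in males and 0.18 in females, 0.22 with the set of title numbers as a factor and 0.18 with the number as a covariate. At an unadjusted p under 0.05, 8 were higher and 1 lower with the set, and 7 higher and 0 lower with the number. Without the 4 follicle-rich libraries the median was 0.11, with 8 higher and 0 lower. The study picked TNF signalling in females from these libraries, so these counts are not independent evidence of its direction.

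The other higher genes described were Wfikkn2 and Tmem181c-ps. Wfikkn2, whose secreted product binds growth factors of the myostatin family (NM_181819, chromosome 11, 94235952 to 94242579), rose from between 2.41 and 5.32 CPM to between 4.78 and 7.89 CPM, with 7 of 8 LKO libraries above every WT library (log2 fold change 0.80, SE 0.14, adjusted p 0.0275 by edgeR). Tmem181c-ps is a pseudogene with close copies, so its count is uncertain (0.49, SE 0.098).

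Paneth cell markers had positive values without a call. Of 20 tested markers of these antimicrobial cells of the crypt base, 19 had a positive log2 fold change (median 0.29), and 12 were higher and 0 lower at an unadjusted p under 0.05 (60%, against 4.67% of all genes). None passed the adjusted threshold with edgeR, the smallest adjusted p being 0.0911 for Itln1 (0.40, SE 0.094). Mmp7, which activates defensins, stood at 0.29 (SE 0.072). The median was 0.46 in males and 0.14 in females, and their summed level ran from 16704 to 19195 CPM in male WT, from 23083 to 29433 in male LKO, from 22071 to 31225 in female WT and from 26714 to 31201 in female LKO. The genotypes did not overlap in males and overlapped in females. The sign was the same in both sexes for 14 of the 20, and for 7 of them the difference between the sexes had an unadjusted p under 0.05. Lyz1, the Paneth lysozyme, had 0.64 in males and -0.07 in females (unadjusted edgeR p of the difference 0.000141, adjusted above the threshold). Many of the markers are alpha-defensins with near-identical copies, and with the set of title numbers as a factor the median was 0.18 with 0 members at an unadjusted p under 0.05. Of 17 goblet cell markers 13 had a negative log2 fold change (median -0.07), with 0 called by edgeR and the mucin Muc2 at -0.14 (SE 0.043). At an unadjusted p under 0.05, 5 were lower (29.4%, against 6.57% of all genes) and 0 higher. Of 20 enteroendocrine markers 1 was called. Chgb, a protein of hormone granules, fell from a median of 128 CPM (108 to 150) to 105 (92.4 to 120), a log2 fold change of -0.30 (SE 0.061, adjusted p 0.0458 by edgeR). At an unadjusted p under 0.05, 1 of these 20 markers was higher (5%) and 5 lower (25%), against 4.67% and 6.57% of all genes.

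**Figure D5:**
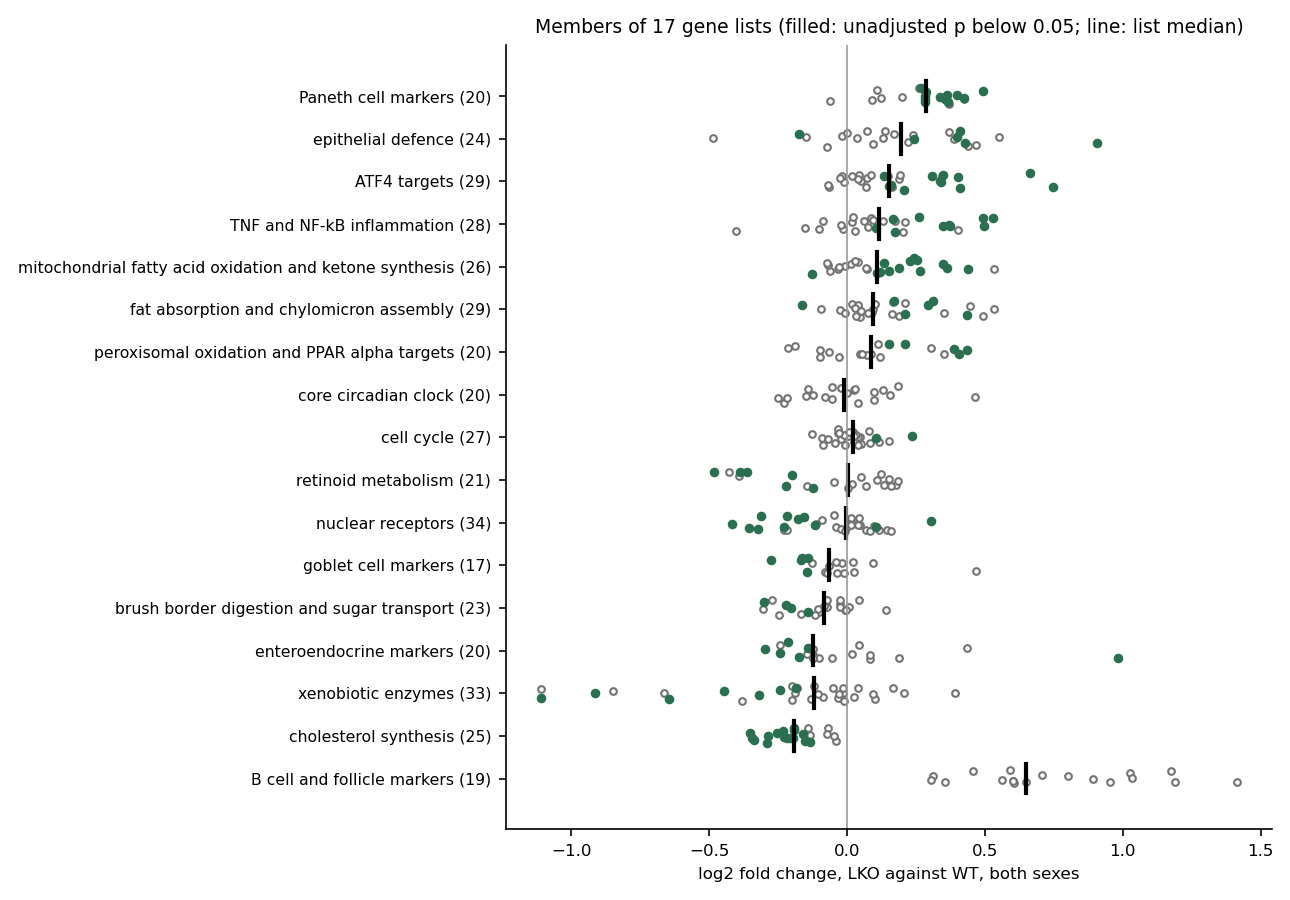
Log2 fold changes of LKO against WT in both sexes (horizontal axis) are shown for members of 17 of the 50 gene lists, with the number tested in brackets (up to 3 members of a list are not drawn), filled points at an unadjusted p under 0.05 and a black line at the list median. Cholesterol synthesis lies left of 0 throughout (median -0.20), Paneth markers lie right of 0 with 1 exception (0.29), and the B cell and follicle markers lie right of 0 (0.65) without a filled point.

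Enterocyte and regional markers gave no call. Of 23 genes of brush border digestion and sugar transport 20 had a negative log2 fold change (median -0.08), with 0 called by edgeR. At an unadjusted p under 0.05, 0 were higher and 4 lower (17.4%, against 6.57% of all genes). Enpep, a brush border aminopeptidase, ran from 1465 to 2043 CPM in WT and from 1301 to 1700 CPM in LKO (log2 fold change -0.30, SE 0.069, adjusted p 0.0679 by edgeR). The 11 tested markers of colon and caecum had a median of 0.04. Marcksl1, of follicle-associated epithelium, stood at 0.48 (SE 0.11, adjusted p 0.08 by edgeR), with 0.20 in males and 0.76 in females. Its highest values, 108.9 and 119.79 CPM, were in female LKO replicates 2 and 3, both rich in follicle RNA. The other female LKO libraries had 94.5 and 95.1 CPM. The list of M cell and follicle-associated epithelium genes had a median of 0.22, and of 0.07 without the 4 follicle-rich libraries.

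Genes of bile acid sensing gave no call in the fit of both sexes. The panel of the bile acid sensor FXR held 6 genes. Of these 5 were tested, all with a positive log2 fold change (median 0.21). The median was 0.32 in males and 0.14 in females. At an unadjusted p under 0.05, 3 of the 5 were higher (60%, against 4.67% of all genes). With the title number as a covariate, or its sets as a factor, 1 was. Slc51b, which with Slc51a forms the basolateral exporter of bile acids, ran from 211 to 293 CPM in WT and from 272 to 351 CPM in LKO, with a log2 fold change of 0.32 in each sex (SE 0.069 overall) and an edgeR adjusted p of 0.0502. Its partner Slc51a stood at 0.21 (SE 0.083, adjusted p 0.335 by edgeR). Fgf15, the hormone that represses hepatic bile acid synthesis, ran from 1.72 to 72.96 CPM in WT and from 27.1 to 91.98 CPM in LKO (log2 fold change 1.65, SE 0.58, adjusted p 0.286 by edgeR), with 2.69 in males and 0.89 in females. Fabp6, the bile acid carrier of the enterocyte, had opposite signs in the sexes (0.38 in males, -0.10 in females, unadjusted edgeR p of the difference 0.0126), so its mean of 0.14 (SE 0.11) describes neither. That mean was -0.03 with the title number as a covariate and -0.11 with the set as a factor. The FXR gene Nr1h4 stood at 0.03 (SE 0.064), and the edgeR adjusted p-values of Fabp6 and Nr1h4 were 0.684 and 0.897. Nr0b2 had at most 13 counts in any library and was not tested. Bcl6 itself ran from 9.24 to 17.9 CPM in WT and from 15.2 to 26.1 CPM in LKO, a log2 fold change of 0.51 (SE 0.13, adjusted p 0.121 by edgeR) that was larger in females (0.77) than in males (0.26), with an unadjusted edgeR p of 0.0454 for the difference between the sexes. Bcl6 is also a gene of germinal centre B cells, and its highest values, 23.6 and 26.1 CPM, were in female LKO replicates 2 and 3, both rich in follicle RNA, against 17.97 and 15.2 CPM in the other female LKO libraries. Without the 4 follicle-rich libraries the log2 fold change was 0.41 (SE 0.11, adjusted p 0.254 by edgeR).

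Several lists held no called gene. Of 20 core clock genes 0 were called by edgeR and 0 were at an unadjusted p under 0.05 in either direction. Cell cycle genes (27 tested, median 0.02) and crypt stem cell genes (20 tested, median -0.02) had 0 calls with edgeR and at most 2 members at an unadjusted p under 0.05 in 1 direction. The 19 B cell and follicle markers had medians of -0.78 in males and 1.99 in females, as the follicle-rich libraries lie in WT among males and mostly in LKO among females, and 0 of them were called or had an unadjusted p under 0.05. Adipocyte markers had medians of -0.48 in males and 0.72 in females, with 0 of 10 called by edgeR or at an unadjusted p under 0.05. Hepatocyte markers were low, at 113 to 193 CPM summed over 16 genes, and 0 of 7 tested were called by edgeR (1 at an unadjusted p under 0.05).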

How the data were processed

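Poly(A) RNA of the terminal ileum was measured in 16 mice, 4 of each sex and genotype, grouped by the sample titles. The authors aligned single-end stranded reads to mm10 with STAR 2.5.2, kept reads with 1 position and at most 4 mismatches, and counted exons with HOMER 4.10, so the deposited values are raw counts per gene on 1 transcript each. The strand setting of the counting is not given in the sources used here. Reads shared by near-identical copies were dropped at alignment, which lowers the counts of gene families such as the alpha-defensins. The authors tested their counts with DESeq2. Gene counts per library had a median of 18.1 M.

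From these counts the effect of genotype was tested with sex as a covariate in edgeR 4.0.16 (R 4.3.3, quasi-likelihood F-test, robust, TMM, filterByExpr by group), with Benjamini-Hochberg adjustment over 15598 genes and a threshold of 0.05. The SE is the log2 fold change divided by the square root of F. Effects within a sex come from fits on 8 libraries, and the difference between sexes from 4 group means. List levels are means of log2(CPM + 0.1). The labels do not say how the animals were housed or collected, so p-values measure only the spread between these samples, which may be technical in part.

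Named genes were those called with a mean of at least 1 CPM (ranges for the 12 higher and 12 lower with the smallest p), the FXR panel, Bcl6, and up to 2 members of each of the 50 gene lists with the smallest unadjusted p. Other members of the lists, Stard13, Setd7, and the sterol and DR1 motifs with the 5 promoters that show a motif were chosen after their values were seen. The members and lists were chosen with earlier results of these data known. Of the called genes 2, and some members of the lists, are not reported here. Promoters are those of RefSeq on GRCm38.p6. Alternatives were DESeq2 1.42.0, other scalings, filters and fits, thinned depth, a replicate block, title numbers as covariate or factor, the follicle score, and leaving out each library. Leaving out the 4 follicle-rich libraries was added after seeing the data.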

Additional observations from a re-analysis of the deposited data

Results flagged for a closer look

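In 128 sets of 4 samples, for the genes and levels looked at, 5 held a sample far from the other three by Dixon's criterion at the 95% level, and chance alone gives about 1 in 20. In female LKO, Slc6a9 reached 29.6 CPM in 1 animal, against 28.69 to 28.77 CPM in the others, which nearly coincide. In male LKO, Cyp1b1 reached 7.99 CPM in 1 animal, against 6.37 to 6.58 CPM in the others. Both are among 120 sets of CPM values. The follicle marker level was 3.04 log2 CPM in male WT replicate 2 and 2.31 in female WT replicate 3, and these libraries are left out in the fits without follicle-rich libraries. The gene counts of female LKO replicate 1 were 60.3 M, and without that library 15 genes were called.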

How the results depend on the processing

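The 42 calls became 224 with DESeq2, which kept all 42, 19 with all libraries thinned to the lowest depth, 17 without the sex covariate, 2 with the title number as a covariate, 0 with its sets as a factor and 5 without the 4 follicle-rich libraries. With a replicate block the count was 16. Whether the replicate numbers pair the animals is not stated. In 24 pairs of the same number the correlation of deviations ran from -0.10 to 0.26 and 6 exceeded 0.1. Pairs of unlike number were not compared, so these values cannot decide it. Leaving out 1 library gave 5 to 102 calls. The count moved by over 1.5 times without male WT replicate 1 (5), replicate 2 (11) or replicate 4 (102), male LKO replicate 2 (14) or replicate 4 (18), female WT replicate 1 (8), replicate 2 (26) or replicate 3 (16), and female LKO replicate 1 (15), replicate 2 (10), replicate 3 (9) or replicate 4 (15). The interaction count was 0 to 1, the 1 arising without female WT replicate 1. The cause was not tested in any of these, though fits with fewer animals have less to test with. Over 31 alternatives and 40 called genes, 1240 values, 0 reversed, 654 stayed past the threshold and 586 did not. All of these fits reuse the libraries on which the genes were selected. Small values of genes that were not called changed sign. Fabp6 was -0.031 with the title number as a covariate and -0.11 with its sets as a factor, Esrra was -0.019 with the title number as a covariate, and Apoa4 was -0.038 without the follicle-rich libraries. On leaving out 1 library Nr1h4 ran from -0.0045 to 0.072, Atf4 from -0.017 to 0.062 and the Esrra log2 fold change from -0.0088 to 0.038 (-0.0023 without male WT replicate 4). Counts limit the lowest genes named, such as Ccl17 near 1 CPM.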
